A study of Mus musculus with 12 samples.

Results

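The comparison set brains of mice lacking Gja9 against wildtype brains at postnatal day 10. It took 8 of the 12 samples of the series by their titles: 4 labelled Gja9 (-/-), called Gja9_null here, and 4 labelled wildtype, all from C57Bl/6j mice. The other 4 samples, from mice with 1 intact copy (Gja9_het), are given as reference values. They also entered the choice of probes, the estimates of spread and dye effect, and the probe means used for the local centring described below. The labels name neither the deletion nor the sex of the mice, and they do not say that each sample was a separate animal, so p-values measure the spread between these samples. Whole brains were used, so a change in cell numbers and a change in RNA per cell cannot be told apart.

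Gja9 is an earlier symbol of Gjd2, the gene of connexin36. Connexins assemble into hexameric channels that dock across neighbouring membranes as gap junctions, and connexin36 forms most neuronal electrical synapses. In the rodent brain it couples GABAergic interneurons and neurons of the inferior olive and thalamic reticular nucleus, and its expression is high in the early postnatal period. The question was which other transcripts differ when this channel protein is missing.

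Total RNA was hybridised to spotted cDNA arrays with 2 colours, and each array held 2 samples of the same genotype in opposite dyes. The 8 samples therefore lay on 4 arrays, 2 per genotype. Values were log2 signals relative to the mean signal of their own sample. They were present for 13443 probes (cDNA clones), which gave 9514 features, namely 6427 genes with their clones averaged and single probes without a single gene. The number of arrays limits the precision, and signal over background is unknown.

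The 2 samples of an array were close to copies of each other. Their correlation across probes lay between 0.986 and 0.989, against 0.865 to 0.878 between arrays of the same genotype and 0.807 to 0.892 between genotypes. The first Gja9_null array, with samples 1 and 2, stood apart from the others. Its median deviation from the probe means ranged from -1.35 to 0.48 between stretches of probe numbers, while on the second Gja9_null array it ranged from -0.54 to 0.47. With 2 arrays against 2, an exact two-sided permutation test over arrays cannot go below p = 0.333, so the tests below rest on a spread shared between features.

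Connexin36 itself could not be read, since 0 probes carry its gene. Of the connexin and pannexin genes, 2 of 23 had probes with values, and both missed the threshold. Gja1, which encodes the astrocytic connexin43, stood at 0.75, 0.58, 0.94 and 0.77 in the wildtype samples and at 0.05, 0.01, 0.98 and 1.29 in Gja9_null. The Gja9_null arrays lay on either side of wildtype, and the difference was -0.18 ± 0.41 (SE), or 0.23 after local centring, which takes off the typical deviation of neighbouring probes. Panx1, a pannexin channel gene, stood at -0.65, -0.83, -1.25 and -1.55 in wildtype and at -2.34, -2.31, -1.33 and -1.57 in Gja9_null, with overlapping groups and a difference of -0.82 ± 0.36, or -0.46 after centring. Its 2 clones disagreed, at -0.11 ± 0.34 and, in the last stretch of probe numbers, -1.52 ± 0.55. Of 23 measured genes of connexin-binding scaffolds and kinases, 0 were called, with a median difference of 0.04. Prkaca, a catalytic subunit of protein kinase A, stood at -0.65 ± 0.29 (adjusted p = 0.408, limma), with clones at -1.13 and -0.18, and at -0.21 after centring.

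With limma on the deposited values, 31 of 9514 features (0.326%) were called at a Benjamini-Hochberg adjusted p under 0.05. Of these, 11 were higher in Gja9_null (0.116%) and 20 lower (0.21%). A single gene was known for 14 of them, 3 higher and 11 lower, and 17 had no single gene. Of the 31 features, 30 rested on 1 clone each, without a second clone to compare. The other, Irgq, had 2 clones that disagreed. The wildtype and Gja9_null samples did not overlap in any of the 31 features, a pattern that 7.52% of all features showed with Gja9_null higher and 15.6% with Gja9_null lower. Genotype differed only between arrays, yet the test also draws degrees of freedom from the paired colours of an array. With the 2 colours averaged, limma called 2 features (0.021%), both higher and without a single gene, and with the Gja9_het samples left out of the fit it called 3. Without the first Gja9_null array it called 51, 15 of them among the 31, and without the second 781.

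**Figure D1:**
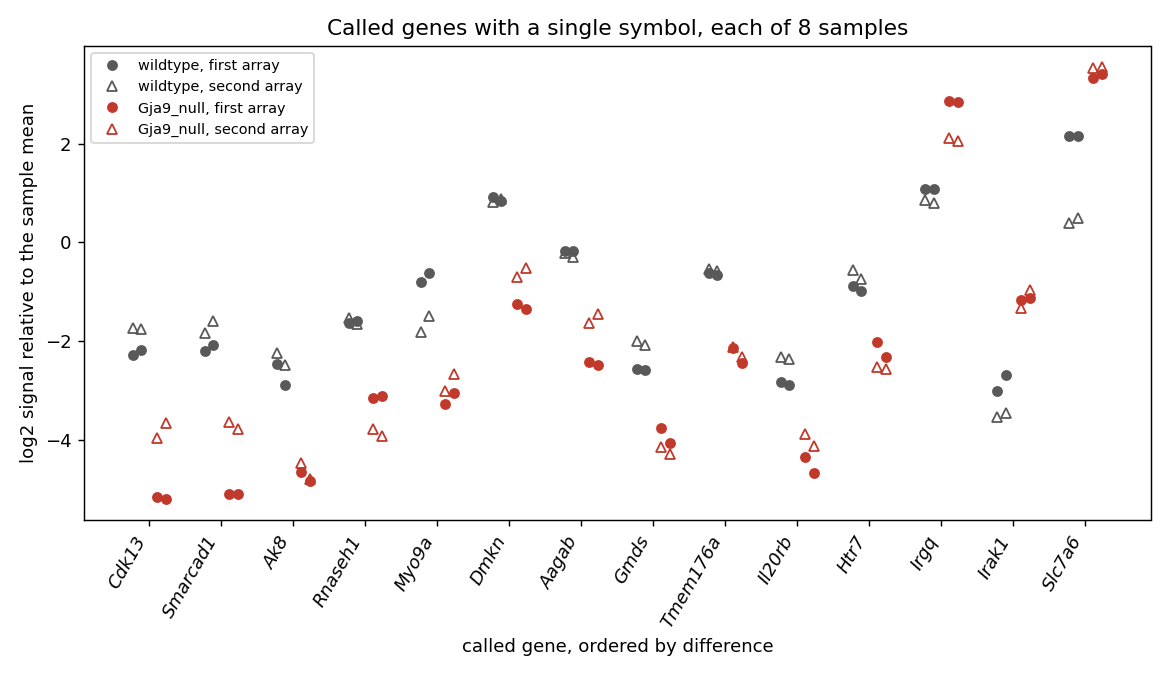
Log2 signal relative to the sample mean in each of 8 samples for the 14 called genes with a single symbol, ordered by difference. Filled circles are the first array of a genotype and open triangles the second. Irak1, Irgq and Slc7a6 are higher in Gja9_null and the other 11 are lower, and the groups do not overlap in any of them.

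Because array deviations followed the probe numbers, each difference is also given after local centring. For each probe, the typical deviation of its neighbours, up to 50 probe numbers away in both directions, was taken off each sample (a running median). Of the 31 features, 15 were called both ways, 10 higher and 5 lower, and 4 of these carried a single gene: Irak1, Irgq, Myo9a and Cdk13. Local centring called 56 features in all (0.589%), 33 higher and 23 lower.

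Irak1, a kinase that relays signals from interleukin-1 and Toll-like receptors, rose in Gja9_null. It stood at -3.01, -2.69, -3.54 and -3.47 in the wildtype samples and at -1.17, -1.12, -1.33 and -0.97 in Gja9_null. All Gja9_null samples lay more than 1 unit above every wildtype sample. The difference was 2.03 ± 0.39 log2 units (SE, limma adjusted p = 0.044), and 2.67 ± 0.26 after local centring (adjusted p = 0.000247). The probes within 50 numbers of it had a median difference of -0.64, opposite in sign. Leaving out the first Gja9_null array gave 2.03 (adjusted p = 0.086).

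Irgq, of the immunity-related GTPase family, rose by 1.51 ± 0.29 (limma adjusted p = 0.039), and by 1.37 ± 0.19 after local centring. Its values were 1.08, 1.08, 0.86 and 0.80 in wildtype and 2.86, 2.84, 2.12 and 2.06 in Gja9_null, where the first array was the higher. Its 2 clones disagreed, at 2.68 ± 0.43 and 0.35 ± 0.34, so that the rise rested on 1 of them. Without the first Gja9_null array the gene stood at 1.13 (adjusted p = 0.113).

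Myo9a, an unconventional myosin, fell by 1.82 ± 0.32 (limma adjusted p = 0.0286). It stood at -0.81, -0.62, -1.81 and -1.49 in wildtype and at -3.28, -3.05, -3.01 and -2.67 in Gja9_null. The wildtype arrays differed from each other, and both lay above the Gja9_null arrays. Its neighbours had a median difference of 0.18, and after local centring Myo9a stood at -1.98 ± 0.35 (adjusted p = 0.0202). With the second Gja9_null array alone it was -1.66 (adjusted p = 0.086).

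Cdk13, a cyclin-dependent kinase that acts on RNA polymerase II, had the largest fall of a named gene on the deposited values. It stood at -2.28, -2.19, -1.73 and -1.75 in wildtype and at -5.16, -5.20, -3.97 and -3.65 in Gja9_null, where the first array was the lower. The difference was -2.51 ± 0.41 (limma adjusted p = 0.0206). Its 50 neighbours with values had a median difference of -1.50, and after local centring Cdk13 stood at -1.08 ± 0.21 (adjusted p = 0.0387). Centring over 25 probe numbers instead gave -0.87 (adjusted p = 0.121). Without the first Gja9_null array the deposited difference was -1.82 (adjusted p = 0.0414).

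Slc7a6, a cationic and neutral amino acid transporter gene, was called only on the deposited values, at 2.16 ± 0.43 (limma adjusted p = 0.0496). The Gja9_null samples were alike, at 3.33, 3.42, 3.53 and 3.55, while the wildtype arrays were apart, at 2.15 and 2.15 against 0.39 and 0.50. After local centring the difference was 1.87 ± 0.39 (adjusted p = 0.0512). Leaving out the first Gja9_null array gave 2.24 (adjusted p = 0.117).

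The other 9 called genes were all lower, and most of them lay among probes that were lower as a whole. Smarcad1, a chromatin remodelling ATPase, stood at -2.19, -2.08, -1.84 and -1.60 in wildtype and at -5.10, -5.11, -3.64 and -3.79 in Gja9_null, a difference of -2.48 ± 0.41. Its neighbours had a median difference of -1.62, and the difference was -0.98 after local centring. Ak8, an adenylate kinase, stood at -2.48, -2.89, -2.25 and -2.50 in wildtype and at -4.66, -4.85, -4.47 and -4.80 in Gja9_null. Both Gja9_null arrays of Ak8 were alike, yet its neighbours had a median difference of -1.12 and local centring moved its difference from -2.17 to -0.98.

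Rnaseh1, a nuclease that removes RNA paired with DNA, stood at -1.63, -1.59, -1.54 and -1.65 in wildtype and at -3.16, -3.11, -3.79 and -3.92 in Gja9_null. The second Gja9_null array was the lower here, against the pattern of Cdk13 and Smarcad1. The difference was -1.89 ± 0.31 (limma adjusted p = 0.0206), among neighbours with a median of -1.09. Without the first Gja9_null array it was -2.26 (adjusted p = 0.00811). Htr7, a serotonin receptor gene, stood at -0.89, -0.98, -0.56 and -0.74 in wildtype and at -2.01, -2.33, -2.53 and -2.57 in Gja9_null. Its neighbours had a median of only -0.31, and it moved from -1.57 ± 0.29 (adjusted p = 0.0372) to -1.26 ± 0.29 (adjusted p = 0.069) under local centring.

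Gmds, the first enzyme of GDP-fucose synthesis, stood at -1.77 ± 0.31, among neighbours with a median of -1.60, and at -0.27 after local centring. Il20rb, a cytokine receptor subunit, stood at -1.66 ± 0.33 among neighbours at -1.50, and at -0.25 after centring. Aagab, which assists assembly of clathrin adaptors, stood at -1.79 ± 0.35 among neighbours at -1.51, and at -0.35 after centring. Tmem176a moved from -1.66 to -0.41, and Dmkn from -1.82 to -0.59. None of these 5 was called after local centring. Without the first Gja9_null array, limma no longer called Smarcad1 (adjusted p = 0.0574), Dmkn (0.086), Il20rb (0.104) and Aagab (0.151), while Ak8, Rnaseh1, Htr7, Gmds and Tmem176a passed with an adjusted p between 0.00811 and 0.0467.

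The largest differences belonged to probes without a single gene. Probe 12208, for which the probe table gives no single gene, stood at 0.14, 0.05, -2.16 and -1.93 in wildtype and at 4.05, 4.09, 3.86 and 3.77 in Gja9_null. Its difference was 4.92 ± 0.52 (limma adjusted p = 0.00135), and it also passed on array means (adjusted p = 0.0222). Probe 15933 stood at -4.57, -4.67, -2.73 and -2.76 in wildtype and between 0.14 and 0.32 in Gja9_null, a difference of 3.89 ± 0.51, with an adjusted p of 0.0391 on array means. Probe 9877 differed by 3.73 ± 0.51, probe 13976 by 4.46 ± 0.67 and probe 24090 by 3.26 ± 0.46. These 5 probes had neighbours with medians between -0.25 and 0.39, and their differences after local centring lay between 3.47 and 4.85. Probe 26847 differed by 3.46 ± 0.64 with uneven Gja9_null arrays, at 2.90 and 2.79 against -0.07 and -0.17. Of the 17 called features without a single gene, 15 had no gene in the probe table and 2 had several.

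The Gja9_het samples lay in the gap for most of the higher features. In 8 of the 11 higher called features, all 4 Gja9_het samples lay above every wildtype and below every Gja9_null sample. Among the lower called features this held for 1 of 20. Among all features whose wildtype and Gja9_null samples did not overlap, it held for 3.64% of 715 with Gja9_null higher and 3.24% of 1483 with Gja9_null lower. The called features were chosen on the Gja9_null difference, and a wider gap leaves more room, so the counts are a description. Irak1 stood at -1.71, -1.40, -2.14 and -2.21 in Gja9_het, and Irgq at 1.44, 1.33, 1.21 and 1.17. Probe 12208 stood at 1.24, 1.04, 1.61 and 1.63. Among the lower genes, the Gja9_het values of Cdk13 lay near wildtype, at -2.09, -2.01, -2.20 and -2.11. Those of Myo9a, at -2.10, -1.75, -2.04 and -1.86, averaged -1.94 between a wildtype mean of -1.18 and a Gja9_null mean of -3.0, and 3 of the 4 lay below every wildtype sample. In 9 of the 11 higher features the first wildtype array was also above the second, against 4788 of all 9514 features. Over all 11, the median of the first minus the second wildtype array was 0.65.

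**Figure D2:**
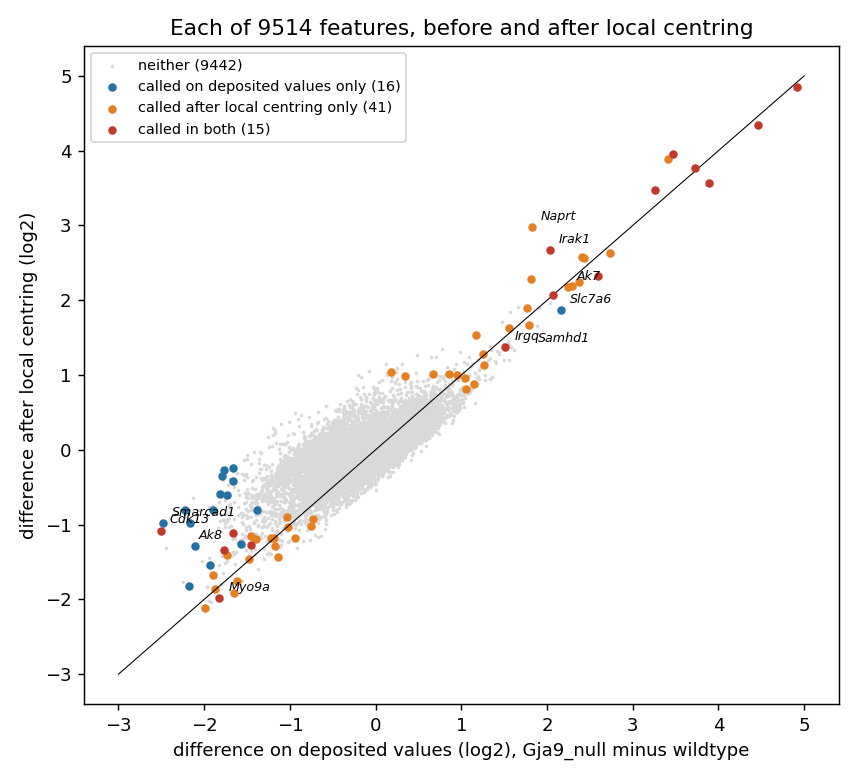
Difference in log2 units, Gja9_null minus wildtype, of each of 9514 features on the deposited values (horizontal) and after local centring (vertical), with the line of equality. Of the called features, 15 were called both ways (10 higher, 5 lower), 16 were called only on the deposited values and 41 only after local centring.

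Local centring called genes with neighbours on either side of 0. In some the difference grew, as in Naprt, and in others, such as Samhd1, Ces2a and Cdh1, it shrank while its SE fell. By the rule for named genes, the 10 largest in each direction are given, and all of them had 1 clone except Irgq. Naprt, which starts NAD synthesis from nicotinic acid, stood at 1.60, 1.19, 0.28 and 0.50 in wildtype and at 2.40, 2.92, 2.96 and 2.58 in Gja9_null. Its neighbours had a median difference of -1.19, and its difference went from 1.82 ± 0.66 (limma adjusted p = 0.316) to 2.98 ± 0.51 (adjusted p = 0.0175). Samhd1, a dNTP-hydrolysing enzyme that restricts viruses, stood at -1.67, -1.59, -2.70 and -2.64 in wildtype and at -0.14, 0.18, -0.74 and -0.76 in Gja9_null. It was 1.79 ± 0.40 on the deposited values (adjusted p = 0.0935) and 1.66 ± 0.26 after centring (adjusted p = 0.0109), a small move.

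Ak7, an adenylate kinase of motile cilia, stood at 0.90, 0.95, -1.01 and -1.10 in wildtype and between 2.05 and 2.38 in Gja9_null. Its difference of 2.24 ± 0.50 (limma adjusted p = 0.0859) was 2.17 ± 0.38 after centring (adjusted p = 0.0209). Tmed3, a cargo receptor of the early secretory pathway, stood at 2.22, 1.81, 0.65 and 0.88 in wildtype and at 4.00, 4.25, 3.40 and 3.07 in Gja9_null, with 2.19 ± 0.37 after centring (adjusted p = 0.0175). In both genes, and in Slc7a6, the second wildtype array was the lower one.

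Fcgbp was at 2.29 ± 0.35 after centring, Azin1, which activates ornithine decarboxylase, at 1.14 ± 0.23, and Cdk18 at 1.54 ± 0.31. Mgp, the matrix Gla protein, went from 0.18 ± 0.43 to 1.04 ± 0.19 through centring, among neighbours at -0.89. On the deposited values its Gja9_null arrays lay on either side of wildtype. They stood at -2.21 and -2.32 against -0.49 and -0.77, with wildtype between -1.85 and -1.49. On the lower side, Lrfn4, a synaptic adhesion protein, stood at -2.87, -2.68, -1.89 and -1.69 in wildtype and at -4.43, -4.22, -3.48 and -3.49 in Gja9_null. After centring it stood at -1.75 ± 0.31 (limma adjusted p = 0.0217), close to -1.62 before. Tapbp, which loads peptides onto MHC class I, was at -1.45 ± 0.29 after centring and -1.48 before (adjusted p = 0.0387 and 0.155).

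Ces2a, a carboxylesterase, was at -1.40 ± 0.29 after centring, and Cdh1, the epithelial cadherin, at -1.15 ± 0.24. Mmadhc, of cobalamin metabolism, was at -1.20 ± 0.21, Nrbf2, an autophagy regulator, at -1.18 ± 0.22, Pdrg1 at -1.29 ± 0.26 and Pdcd7 at -1.04 ± 0.20. With local centring and array means together, limma called 0 features, with a smallest adjusted p of 0.0622 and 1171 features at an unadjusted p under 0.05. The calls after local centring therefore also rest on the degrees of freedom of paired colours.

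The genes between the calls and the rest were of similar size. On the deposited values the nearest uncalled lower genes were Cd79b, of the B cell receptor, at -1.80 ± 0.39 (limma adjusted p = 0.0806), Telo2, which stabilises kinases of the ATM and mTOR family, at -1.75 ± 0.38 (0.0814 by the same test), Commd7 at -1.53 ± 0.34, Lsm2, of the spliceosome, at -1.83 ± 0.41, and Ywhah, a 14-3-3 protein, at -1.31 ± 0.29. On the higher side they were Ak7, Samhd1, Tmed3, Dct, a melanin enzyme, at 1.88 ± 0.47, and Tmem163, a zinc transporter of synaptic vesicles, at 1.15 ± 0.29. After local centring Cd79b stood at -0.87, Commd7 at -0.40 and Lsm2 at -0.70, among neighbours at -1.03, -1.08 and -1.09. Dct stood at 1.66 after centring, and Tmem163 passed at 0.88 (limma adjusted p = 0.0387). Ywhah was even across arrays, at -1.11, -1.07, -1.26 and -1.16 in wildtype and -2.39, -2.30, -2.51 and -2.62 in Gja9_null.

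Position along the probe numbers went with the differences over the whole array. In 48 stretches of 598 probe numbers, the median difference ranged from -0.85 to 0.39 on the deposited values and from -0.07 to 0.04 after local centring. It was below 0 in 30 of the stretches. The stretches numbered 28, 32, 36, 40, 44 and 48 had medians of -0.59, -0.81, -0.82, -0.85, -0.68 and -0.83, and stretches 3, 4 and 47 had -0.79, -0.60 and -0.73. In the first 6 of these the first Gja9_null array was at or below -0.50, and the second lay between -0.20 and 0.37. The last 3 stretches had a median of -0.69, against -0.05 over the other 45, and held 15 of the 20 lower called features and 1 of the 11 higher, with 5.34% of all features. After local centring they held 6 lower and 3 higher called features. Of the 20 lower called features, 14 were among the dimmest 25% of probes, against 2 of the 11 higher ones.

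**Figure D3:**
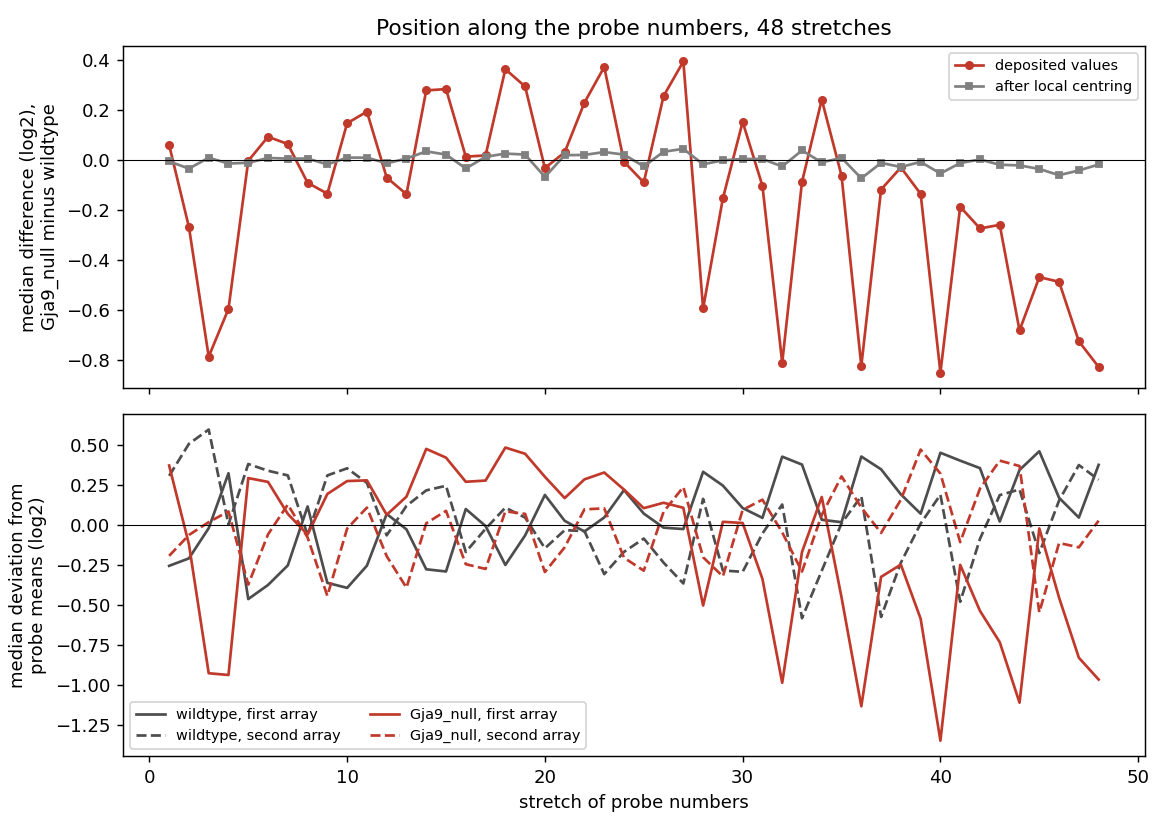
Top, median difference in log2 units (Gja9_null minus wildtype) in 48 consecutive stretches of probe numbers, on the deposited values and after local centring. Bottom, median deviation of each of the 4 arrays from the probe means. The deposited differences drop below -0.5 in a recurring set of stretches in which the first Gja9_null array is low, and local centring holds them between -0.07 and 0.04.

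Genes with several clones gave a second reading of the same transcript at another position. Of 2586 such genes, the differences of the first 2 clones correlated at r = 0.05 across genes, and at 0.04 after local centring. The mean levels of the same clone pairs correlated at 0.43. These points share arrays and samples, so the correlations are descriptions. The 2 clones had the same sign in 53.2% of genes, and the median gap between them was 0.44 log2 units, against a median size of the difference of 0.33 per clone. Where at least 2 clones of a gene had an unadjusted limma p under 0.05, they pointed in opposite directions in 9 of 44 genes, and after local centring in 36 of 100.

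In 11 of the 2586 genes (0.425%) every clone differed in 1 direction at an unadjusted limma p under 0.05, in 9 lower and in 2 higher. None of the 11 was called over all features. Med13, a subunit of the Mediator kinase module, stood at -1.74, -1.82, -1.27 and -1.31 in wildtype and at -0.03, 0.09, -0.78 and -0.58 in Gja9_null. Its clones differed by 1.43 ± 0.45 and 0.99 ± 0.39. Drg2, a ribosome-associated GTPase, stood at -0.68, -0.76, -0.46 and -0.62 in wildtype and at 0.44, 0.53, 0.23 and 0.36 in Gja9_null, and its clones differed by 1.11 ± 0.44 and 0.94 ± 0.32. Tmc6, a transmembrane channel-like protein, stood at -2.30, -2.37, -2.63 and -2.67 in wildtype and at -4.18, -3.94, -3.55 and -3.88 in Gja9_null, with clones at -1.45 ± 0.62 and -1.34 ± 0.39. Naming a gene here required wildtype and Gja9_null samples that did not overlap, so that separation is no further support.

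Only Med13, Drg2 and Tmc6 kept every clone under the unadjusted threshold after local centring, at 1.07, 0.77 and -1.20 for the gene means. Their adjusted limma p was then 0.0576, 0.0757 and 0.0823. The other 8 were Telo2, Dhx40, an RNA helicase (-1.30), Preb, of vesicle budding from the endoplasmic reticulum (-1.24), Ube2e3, a ubiquitin-conjugating enzyme (-1.22), Abcf1, of translation initiation (-1.22), Ctps, which makes CTP (-1.19), Smg5, of nonsense-mediated decay (-1.16), and Septin3, a neuronal septin (-1.08). After centring these 8 lay between -0.67 and -0.15.

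After local centring 22 genes (0.851%) had all clones under the unadjusted threshold in 1 direction, 15 higher and 7 lower. The 5 largest in each direction were named by a rule added after the values were seen, and Med13 and Tmc6 are among them. Eif3m, a translation initiation subunit, was at 0.98 ± 0.21 after centring, Wnk2, a kinase of ion transport, at 1.0 ± 0.22, Ap3s1, of an endosomal clathrin adaptor, at 0.93 ± 0.24, and Aimp2, of the tRNA synthetase complex, at 0.81 ± 0.23. Lower ones were Bbox1, of carnitine synthesis (-0.94 ± 0.25), Jak2, a cytokine receptor kinase (-0.72 ± 0.16), Slc38a4, an amino acid transporter (-0.71 ± 0.19), and Elmo1, which activates Rac (-0.58 ± 0.17). None of them was called over all features, with limma adjusted p between 0.0545 and 0.148.

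**Figure D4:**
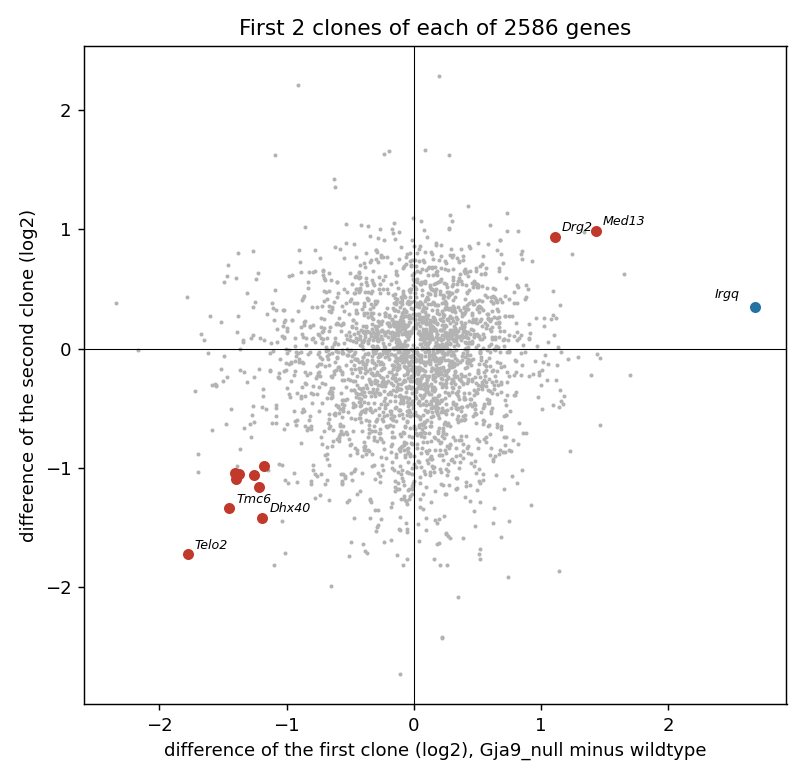
Difference in log2 units (Gja9_null minus wildtype) of the first clone (horizontal) and the second clone (vertical) of 2586 genes with at least 2 clones. Red points are the 11 genes whose clones all differed in 1 direction at an unadjusted p under 0.05, Irgq is blue with clones at 2.68 and 0.35, and the cloud shows no slope (r = 0.05).

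Gene lists were drawn up with earlier results known, several of them around a called gene, so their called members support nothing further. List members without a stated call missed the threshold on the deposited values. The median difference over all features was -0.10, and -0.01 after local centring. Among immune signalling genes, Irak1 was the 1 called of 11 measured in interleukin-1 and Toll-like receptor signalling, where the median was 0.11. Ikbkb, a kinase upstream of NF-kappaB, stood at 1.36 ± 0.53, and at 0.97 after centring. Its wildtype samples were at -3.28, -3.43, -1.47 and -1.21 and Gja9_null between -1.13 and -0.70, so most of the difference lay in the first wildtype array. Rela, an NF-kappaB subunit, stood at -1.02 ± 0.39 among neighbours at -1.33, with 0.20 after centring. Of 18 cytokine receptor and Jak-Stat genes 1 was called, Il20rb, and the median was -0.33, or -0.06 after centring. Il17rc, an interleukin-17 receptor subunit, stood at -1.94 ± 0.44 (limma adjusted p = 0.0949), and at -0.76 after centring. Of 5 immunity-related and guanylate-binding GTPases, Irgq was called and Gbp8 stood at 0.93 ± 0.38 (0.50 after centring), with a list median of 0.80 and of 0.50 after centring.

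Among 21 amino acid transporter genes, Slc7a6 was the 1 called. At an unadjusted p under 0.05, 5 of the 21 were higher and 0 lower, against 2.41% and 9.22% of all features. Slc38a3, a glutamine transporter, stood at 0.99 ± 0.33 (limma adjusted p = 0.268), and Slc1a3, the glutamate transporter of astrocytes, at 0.90 ± 0.31 (0.57 after centring). The list median was 0.07, and 0.31 after centring. Of 13 nucleoside and nucleotide kinases Ak8 was called lower, Ak7 stood high without a call, and Dtymk, of dTTP synthesis, stood at -1.10 ± 0.39 (-0.46 after centring), around a median of -0.04. Of 10 RNase H and nucleic-acid sensing genes Rnaseh1 was called, around a median of 0.12.

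Among 39 SNF2-family and related chromatin remodelling genes, Smarcad1 was the 1 called, and the median was -0.14. Btaf1, which moves TATA-binding protein, stood at -1.27 ± 0.51 and Chd5, a neuronal remodeller, at -1.03 ± 0.38, and at -0.40 and -0.12 after centring. Cdk13 was the 1 called of 28 cyclin-dependent kinases and cyclins, with a median of 0.12. Myo9a was the 1 called of 8 unconventional myosins, with a median of -0.48 and -0.25 after centring. Gmds was the 1 called of 15 nucleotide-sugar genes, where Mpi, of mannose metabolism, stood at -0.83 ± 0.38 among neighbours at -0.77, and at -0.04 after centring. Htr7 was the 1 called of 5 monoamine receptor and enzyme genes.

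Apart from the monoamine list with Htr7, the neuronal lists held 0 called members. The median was 0.05 over 28 voltage-gated channel genes. It was -0.01 over 4 receptor genes for glutamate, GABA, glycine or acetylcholine. In the channel list, the channel-interacting Kcnip3 stood at 0.94 ± 0.44 (0.62 after centring), with overlapping groups. Of 34 synaptic vesicle and release genes, 2 lay wholly above and 6 wholly below wildtype, against 7.52% and 15.6% of all features. They included the syntaxins Stx3 (-1.05 ± 0.29) and Stx2 (-0.94 ± 0.36, and -0.57 after centring) and the synaptotagmin Syt3 (-1.20 ± 0.54, and 0.19 after centring). The median of the vesicle list was -0.13, and 0.02 after centring. Over 10 markers of GABAergic interneurons, the cells that connexin36 couples, the median was -0.38 and went to -0.03 after centring, with the transcription factor Maf at -1.08 ± 0.43 (-0.30 after centring). It was 0.22 over 8 forebrain excitatory markers and -0.03 over 25 general neuronal genes, where Nefm, a neurofilament, stood at -1.74 ± 0.53 among neighbours at -0.97, and at -0.83 after centring.

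Of 27 axon guidance genes 6 lay wholly above wildtype and 2 wholly below, against 7.52% and 15.6% of all features. After centring 6 lay wholly above and 1 below, against 13.5% and 13.2% of all features. The list median was 0.23 (0.16 after centring). Rgmb, a BMP co-receptor of the repulsive guidance family, stood at 0.86 ± 0.28 (limma adjusted p = 0.256) and passed after local centring at 1.02 (adjusted p = 0.0103). Ephb6, an ephrin receptor, stood at 0.95 ± 0.37, and its ligand family member Efnb1 at -2.14 ± 0.70 among neighbours at -1.60, and at -0.65 after centring. Of 16 Notch and Wnt genes 0 were called. Numbl, an inhibitor of Notch, stood at -1.94 ± 0.59 with neighbours at 0.08, but its groups overlapped. Its wildtype samples were at -3.28, -2.99, -1.17 and -1.09, and Gja9_null at -5.11, -4.96, -3.19 and -3.03. Without the first Gja9_null array its difference was -0.98. Sfrp1, a Wnt antagonist, had clones at -0.20 and 1.66 and stood at 0.73, or 0.33 after centring. Fzd5, a Wnt receptor, stood at -1.0 ± 0.46 with overlapping groups, and at -0.73 after centring.

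Markers of other cell types held 0 called members. The median over 18 astrocyte and radial glia markers was -0.05, and 0.22 after centring, with Ttyh1 at 0.59 ± 0.27. Fabp7, a radial glial fatty acid binding protein, stood at 1.66 ± 0.67, but its groups overlapped: wildtype was at -1.36, -1.12, 1.65 and 1.79 and Gja9_null between 1.38 and 2.36, so that the difference lay in the first wildtype array. Over 9 oligodendrocyte markers the median was -0.56, and -0.09 after centring. The 4 clones of Pdgfra, the receptor that marks oligodendrocyte precursors, stood at -0.09, -0.09, -1.17 and -2.0, the last 2 of them in the second-last stretch. The median was -0.21 over 11 microglial and blood immune markers. Among them H2-Eb1 stood at -1.12 ± 0.41, with clones at -0.51 and -1.74, and at -0.04 after centring. The B cell gene Ms4a1 stood at -1.05 ± 0.37, and at -0.37 after centring. The median was -0.06 over 20 endothelial and meningeal, -0.13 over 4 choroid plexus and -0.18 over 7 erythroid genes. Alas2, of haem synthesis, stood at -1.45 ± 0.34 among neighbours at -1.23, and at -0.20 after centring. Over 28 proliferation genes the median was -0.01, with Mcm4, of the replicative helicase, at 0.73 ± 0.32 and the mitotic Kif23 at -0.97 ± 0.34. The 5 immediate early genes had a median of -0.001, and of 0.30 after centring. Of a list of 10 sex-linked transcripts, which does not hold every gene of the sex chromosomes, only Eif2s3y was measured, and it differed by 0.23. Neuronal and glial markers had probes, but levels cannot be compared between probes, so the tissue label was not checked by level.

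Housekeeping lists also held 0 called members. Over 60 genes of cytosolic ribosomal proteins the median was 0.00, and 0.14 after centring, and 5 lay wholly above and 5 wholly below wildtype, against 7.52% and 15.6% of all features. After centring, 19 of the 60 lay wholly above and 5 wholly below, against 13.5% and 13.2% of all features. Rpl4 had clones at -0.05 and -1.76, the second of them in the last stretch, and Rpl17 stood at -1.71 ± 0.51 (-0.91 after centring). Rpl29 stood at -0.89 ± 0.33 among neighbours at -1.18, and turned to 0.32 after centring. The 66 respiratory chain and ATP synthase genes had a median of -0.10, with Ndufa6 at -1.56 ± 0.43, Ndufa11 at -0.97 ± 0.38 and Ndufs5 at -0.93 ± 0.40, all of complex I, and at -0.85, -0.36 and -0.53 after centring. The 40 proteasome genes had a median of -0.01, with Psmc6 at -1.53 ± 0.40 and Psmc2 at -0.62 ± 0.28, ATPases of the regulatory cap, and Psmb6, a catalytic subunit, at 0.94 ± 0.38. The clones of Psmc2 were at -0.28, -0.50 and -1.08. After centring Psmc6 stood at -0.34 and Psmc2 at -0.39.

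Of 74 chaperones and folding enzymes, 17 lay wholly below wildtype and 1 above, against 15.6% and 7.52% of all features. After local centring 9 lay below and 6 above, against 13.2% and 13.5%, and the median went from -0.15 to 0.02. The 3 leading members were Fkbp5 (-1.44 ± 0.46), Fkbp3 (-1.14 ± 0.36) and the chaperonin subunit Cct8 (-1.04 ± 0.33). They had neighbours of their first clone between -1.11 and -0.90, and stood at -0.42, -0.22 and -0.45 after centring. The clones of Fkbp3 were at -1.59 and -0.69 on the deposited values, and those of Cct8 at -1.72 and -0.36. Of 24 measured genes near Gjd2 on chromosome 2, 0 were called and the median was -0.15, or -0.02 after centring, with Nusap1, a spindle protein, at -1.28 ± 0.46 and Rtf1, of transcription elongation, at -0.77 ± 0.30, and at -0.51 and -0.42 after centring.

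**Figure D5:**
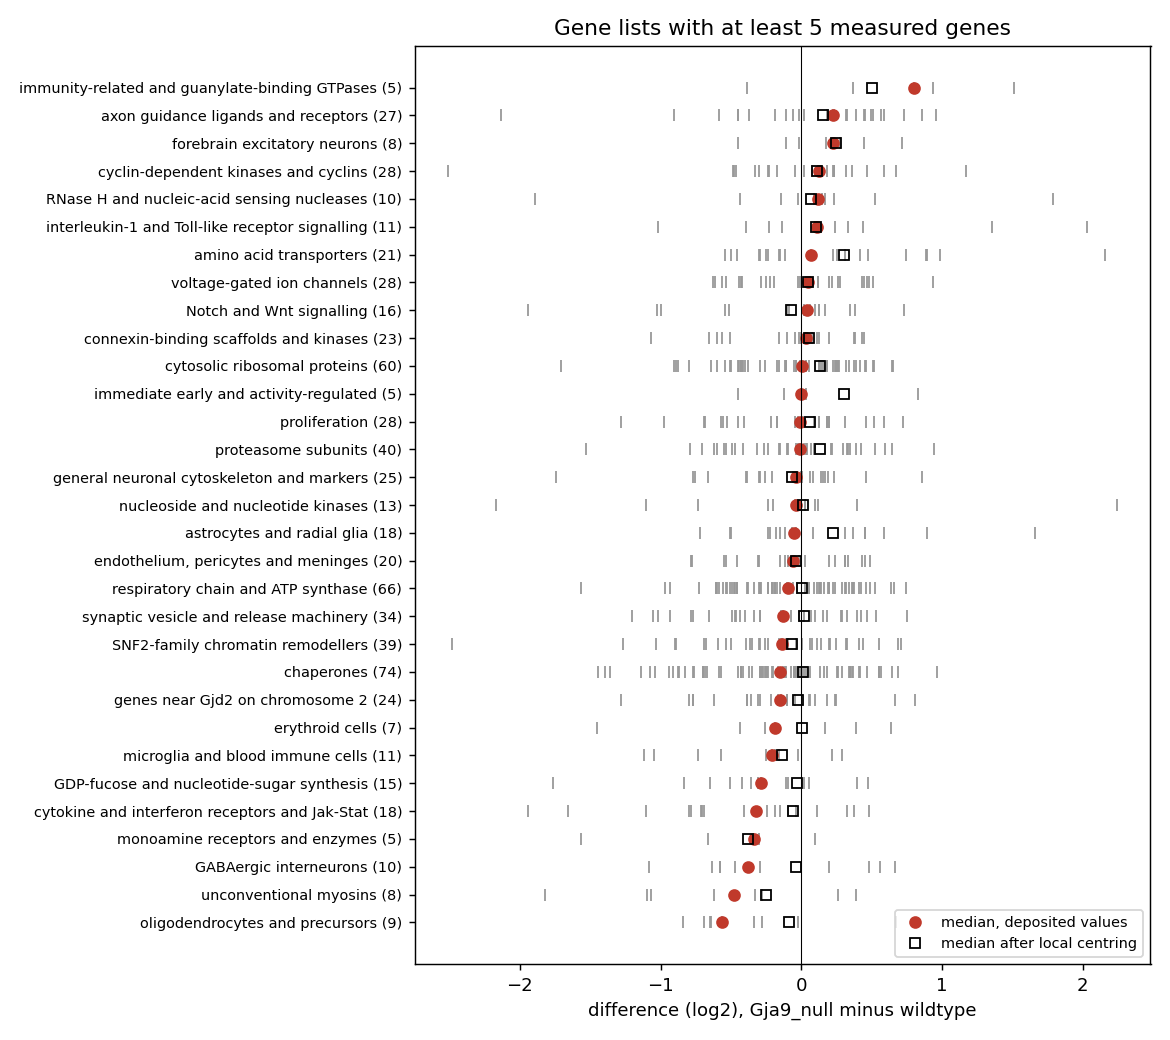
Differences in log2 units (Gja9_null minus wildtype) of every measured gene (ticks) in lists with at least 5 measured genes, with the number measured in brackets. Red circles are medians on the deposited values and open squares after local centring. Medians lie between -0.56 and 0.80 on the deposited values, and the largest moves toward 0 are in oligodendrocyte and interneuron markers.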

How the data were processed

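Per the labels' protocols, total RNA (Trizol, 60 micrograms a sample) received Cy5 or Cy3, whichever the label field names. Labelling text of wildtype 3 and Gja9_null 1 names the other dye. The deposited values are log2 signals relative to the mean of each sample, because unlogged values have a mean of 1 in each of them. For the authors' background and dye correction, no step is stated in the labels. Probes were named from the platform's probe table (10356 with 1 gene, 560 with several, 2527 with none), and symbols were updated through RefSeq for 10263. No coordinates are reported.

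Samples sharing an array were read from the values: samples 1 minus 3 correlated with 2 minus 4 at 0.940 in wildtype and 0.933 in Gja9_null. The model, fitted in R 4.3.3 by limma 3.58.1 (lmFit, eBayes, two-sided), held all 12 samples, terms for genotype and dye, and a random array block (correlation 0.927). Benjamini-Hochberg adjustment ran over all 9514 features. Tested on simulated data, the fit missed most smaller changes and, beside larger ones, made more false calls than the threshold allows. The simulated features were independent and carried no deviation along the probe numbers, and each size of change was drawn once. Figures were drawn with matplotlib 3.10.9 in Python 3.11.15.

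The members, lists and alternatives were chosen with earlier results of these data known. Named genes are called genes, the 10 largest per direction after local centring, genes whose clones agree, the 5 nearest uncalled per direction and connexins. From each list up to 3 were added by smallest unadjusted limma p under 0.05. Genes whose clones agree were named only where wildtype and Gja9_null samples did not overlap on the deposited values.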

Additional observations from a re-analysis of the deposited data

Results flagged for a closer look

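In a group of 4 samples, 1 sample was far from the other 3 in 4 of 242 groups tested. The cut-off gives about 1 in 20 by chance for independent samples. Here samples shared arrays in pairs, so that rate cannot say whether the 4 are an excess. H2-Eb1, an MHC class II gene, was at -1.94 in wildtype sample 4 and between -1.66 and -1.64 in the other wildtype samples. Ikbkb was at -0.70 in Gja9_null sample 2 and between -1.13 and -1.06 in the others. Ttyh1 was at 1.47 in Gja9_null sample 3, against 1.57 to 1.58. Probe 24944, called lower, was at -1.18 in wildtype sample 2, against -1.07 to -1.05.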

How the results depend on the processing

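The total called, 31 as reported, was between 13 and 25 when each sample was left out in turn, with 20 or fewer without wildtype 1 (15), 3 (13) or 4 (15), Gja9_null 2 (17) or 4 (19), or Gja9_het 1 (20). Totals were 2 on array means, 3 on the 8 samples alone, 5 with quantile normalization, 8 with cyclic loess (7 of them among the 31), 14 with array weights, 7 without the dimmest 25% of probes and 6 without the last 3 stretches. Testing each clone alone gave 17, and 63 after local centring, an alternative chosen after seeing the data. Local centring over 50, 25 or 150 probe numbers gave 56, 58 and 60, and with array means 0. Without an array block 1464 were called. Leaving out the first Gja9_null array gave 51, 5 of them higher, and leaving out the second 781, 720 of them lower. Median centring (23), no dye term (37), a mean-dependent prior (24), and leaving out the first (33) or second (21) wildtype array stayed within 1.5 times of 31. The wildtype arrays turned the balance, however: without the first, 22 were higher and 11 lower (14 among the 31), and without the second, 19 were higher and 2 lower (6 among the 31). Median centring gave 13 higher and 10 lower, quantile normalization 5 and 0, and cyclic loess 8 and 0, against 11 and 20. With the replicate number as a block, 1770 were called, but same-numbered samples did not deviate together (correlations from -0.10 to -0.07), so the numbers do not pair samples.

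Of 3803 values of 121 features under the alternatives, 18 changed sign, none of them in one of the 31. Gja1 was 0.23 after local centring (also with array means), 0.43 and 0.11 over 150 and 25 probe numbers, and 0.38 without the first Gja9_null array. Rela was 0.20, 0.059 and 0.26 in the same order of centring, Rpl29 was 0.32, 0.17 and 0.44, and Syt3 was 0.19, and 0.23 over 25 numbers. Fzd5 was 0.22 under cyclic loess, and Mgp -0.63 without the second Gja9_null array. The cause was not tested.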
